A study of Mus musculus with 20 samples.

Results

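The postsynaptic scaffold genes Shank1, Shank2, Shank3, Dlg2, Dlg3, Dlg4, Dlgap1, Dlgap2, Dlgap3 and Dlgap4 were picked by symbol, 10 of the 32245 gene symbols in the count table. All 10 were among the 15373 genes that passed the filter on low counts. These genes, and the lists of partner genes below, were chosen with earlier results of these data known. Their counts beside those of all genes are therefore a description only. The RNA came from granule cells of the mouse hippocampus, marked by Rbp4-Cre together with the RiboTag allele, in which Cre places an HA epitope on the ribosomal protein RPL22. Tagged ribosomes were pulled out of a homogenate of the whole hippocampus with anti-HA beads, and the poly-adenylated RNA bound to them was sequenced. The 6 ages were postnatal day 5 (P5, 5 libraries) and P7, P10, P15, P21 and P28 (3 libraries each), all of the genotype Rbp4-Cre:RiboTag and with no treatment named. As a model this is limited to cells in which the Rbp4-driven Cre has acted, and RNA of other hippocampal cells can come down with the beads. The labels name 3 batches, called A, B and C here. Batch A comprised 3 P5 libraries with those of P10 and P15, batch B the other 2 P5 libraries with those of P7, and batch C the libraries of P21 and P28, so that age and batch cannot be told apart where P21 or P28 is set against an earlier age. Since no label states that each library was made from a different animal, p-values here describe only the spread between these libraries.

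The postsynaptic density is a protein layer under the membrane of excitatory synapses, and the 3 gene families encode successive layers of it. Dlg proteins (Dlg2 encodes PSD-93, Dlg3 SAP102, Dlg4 PSD-95) lie at the membrane and hold the tails of glutamate receptors and adhesion molecules with their PDZ domains. Dlgap proteins (SAPAP or GKAP) bind the guanylate kinase domain of Dlg proteins, and Shank proteins bind the Dlgap ends and join them to Homer and the actin skeleton. In the rodent hippocampus SAP102 is known as the member present at early postnatal synapses, and PSD-95 and PSD-93 as those of later ones.

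The binding ends of these proteins can be read in the coding sequence. Palmitoylation of a pair of cysteines near the start of PSD-95 and of PSD-93 anchors these proteins at the membrane, and the first 30 coding bases of the Dlg genes are shown with each cysteine codon in capitals. They were read from the mm10 genome with GENCODE release vM21, all on the plus strand and each from 1 annotated transcript, while other transcripts of these genes can start elsewhere.
Dlg2, chr7:91091007-91091036: atgttctttgcaTGTtatTGTgcactccgg
Dlg3, chrX:100768072-100768101: atgcacaagcaccagcacTGCTGTaagTGC
Dlg4, chr11:70018920-70018949: atggacTGTctcTGTatagtgacaaccaag
Cysteine codons stood at positions 5 and 7 in Dlg2, at 7, 8 and 10 in Dlg3 and at 3 and 5 in Dlg4.

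The last 4 codons of the Dlgap genes encode the end that the Shank PDZ domain binds. The final 30 coding bases before the stop codon are shown because they are the contact between the second and the third layer, with those 12 bases in capitals (mm10, plus strand).
Dlgap1, chr17:70818202-70818231: atctacatccccgaggcgCAGACCCGGCTC
Dlgap2, chr8:14846676-14846705: atctacatccctgaggccCAGACGCGGCTC
Dlgap3, chr4:127236336-127236365: atctacatccccgaggccCAGACCAGGCTG
Dlgap4, chr2:156762871-156762900: atttatgtccccgaggccCAGACCAGGCTC
Between 2 of these genes 24 to 27 of the 30 bases and 9 to 11 of the last 12 were identical, and the 4 codons encoded the same amino acids in every pair.

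Total counts were 15.9 to 24.9 M per library, so that a floor of 3 counts corresponds to 0.122 to 0.181 CPM (TMM-scaled counts per M), far below the levels of the 10 genes. Summed markers of granule cells lay at 1494 to 1647 CPM at P5, 2071 to 2193 at P15 and 2322 to 2386 at P28, and none of the 7 was at 0. The 4 markers of newborn neurons summed to 891 to 1189 CPM at P5, 173 to 186 at P15 and 114 to 118 at P28. Markers of other cells were not at 0 either. The 7 oligodendrocyte markers summed to 96.6 to 122 CPM at P5, 1013 to 1775 at P15 and 856 to 1016 at P28, and the 5 astrocyte markers to 541 to 605 CPM at P5, 1104 to 1358 at P15 and 816 to 1010 at P28. Among other neurons, 6 interneuron markers summed to 144 to 169 CPM at P5, 250 to 302 at P15 and 241 to 265 at P28. The 6 markers of CA pyramidal cells summed to 176 to 261 CPM at P5, 222 to 672 at P10, 248 to 401 at P15 and 223 to 379 at P28. Microglia markers summed to 14.1 to 21.7 CPM and endothelium markers to 2.88 to 3.83 CPM at P28. The spectrin genes Sptan1 and Sptbn1 set batches and single libraries apart: Sptan1 measured 1575 to 1947 CPM in batch A and 6254 and 7269 CPM in batch B among the P5 libraries, and 25712 to 39234 CPM among those of P7. The part of these markers and of the spectrin level in the results below was not tested, except by fits with the spectrin level as a covariate, which are given where they end a call.

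**Figure D1:**
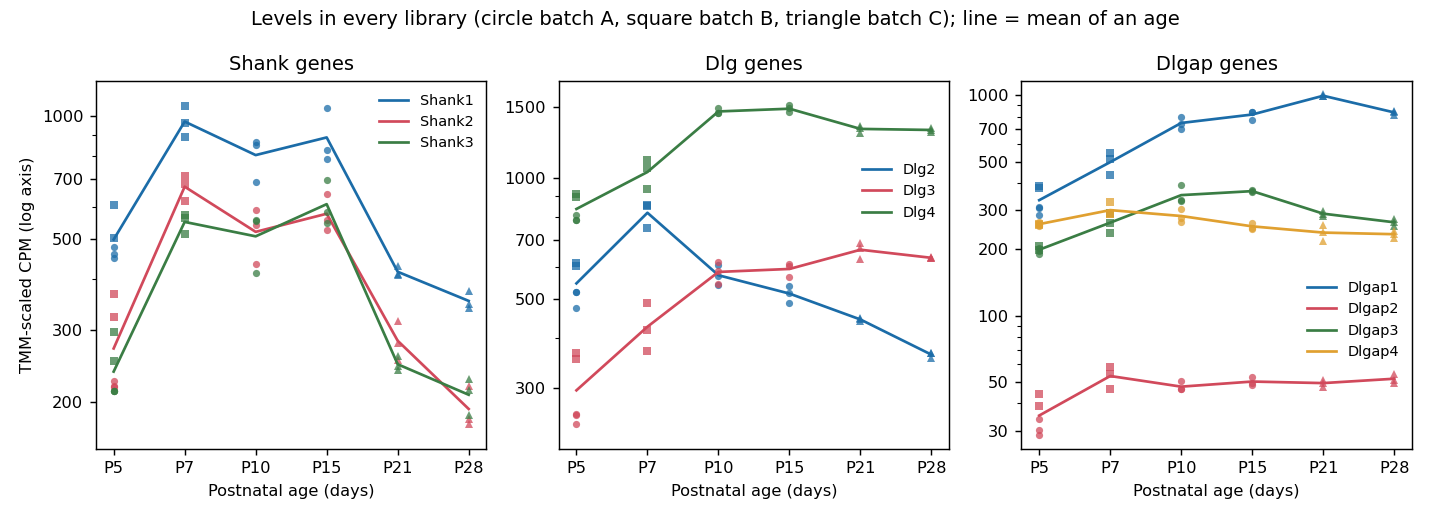
TMM-scaled counts per M (log axis) of the Shank, Dlg and Dlgap genes in each of 20 libraries by postnatal age (ages evenly spaced), with lines through the mean of an age and symbols for batches A, B and C. The Shank genes stand high from P7 to P15 and low at P21 and P28, Dlg3, Dlg4 and Dlgap1 stay high from P10 on, and Dlg2 is highest at P7.

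All 10 genes differed over the 6 ages (edgeR's quasi-likelihood F test over the age terms, Benjamini-Hochberg adjusted p at most 0.0011), where 79.7% of all genes tested did. The fitted means spanned 3.29-fold for Dlgap1, 3-fold for Shank2, 2.92-fold for Shank3, 2.61-fold for Dlg3 and 2.51-fold for Shank1. Dlgap4, at 1.29-fold, had the narrowest span. The genes followed unlike courses: the 3 Shank genes were high between P7 and P15 and low again at P21 and P28, Dlg3, Dlg4, Dlgap1 and Dlgap2 rose and stayed up, Dlgap3 was highest at P10 and P15, Dlg2 was highest at P7 and lowest at P28, and Dlgap4 stayed nearly level. In bulk libraries such as these, fewer cells of a type and less RNA per cell cannot be told apart.

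P15 against P5 is the longest span that lies within a single batch, since the batch term makes this comparison rest on the P5 libraries of batch A. Of the 10 genes 8 rose and none fell, against 31.6% of all genes called higher and 31.8% called lower. Scaled by total counts, 39.2% of the called genes were higher in place of 49.8%, and the scaffold genes divided into 8 that rose and 1, Dlgap4, that fell. The median log2 change was 0.92 over the 10 genes and -0.02 over all genes. Dlg2 and Dlgap4 were the members that did not pass.

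Among the membrane-side Dlg genes, Dlg4, which encodes PSD-95, had the highest counts. It stood at 1512, 1486 and 1455 CPM at P15, against 786, 785 and 805 CPM in the batch A libraries and 909 and 896 CPM in the batch B libraries of P5. No P15 library overlapped a P5 library. The log2 change was 0.91 (SE 0.05, adjusted p = 3.9e-13), a 1.87-fold rise. The share of all genes with no overlap between ages was not computed, here or below. Dlg3, which encodes SAP102, stood at 604, 609 and 567 CPM at P15, against 244, 258 and 258 CPM in batch A and 355 and 366 CPM in batch B at P5. It rose 2.34-fold (log2 change 1.23, SE 0.07, adjusted p = 2.7e-13), again with no overlap, and the batch B libraries of P5 lay above those of batch A. Dlg2, which encodes PSD-93, stood at 538, 518 and 488 CPM at P15, within the range of 473 to 612 CPM over the 5 P5 libraries. Its log2 change was 0.03 (SE 0.06, adjusted p = 0.68), and the sign turned in 6 of 33 alternative fits, among them those without replicate 1 of P15 (-0.021) or replicate 1 of P5 in batch A (-0.017). With an offset for exon length the change was 0.186 (adjusted p = 0.021).

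Dlg2 thus changed its proportion to Dlg3 and Dlg4, which a ratio within each library shows without any scaling. Each library held 0.85 to 0.89 Dlg2 counts per Dlg3 count at P15, against 1.65 to 2.02 at P5. The log2 ratio averaged -0.21 ± 0.03 (SD, n = 3) at P15 and 0.90 ± 0.14 (SD, n = 5) at P5, a difference of -1.10 (exact two-sided permutation test, p = 0.0357, the smallest this design allows, adjusted over 12 pairs of paralogues 0.0429) and of -1.20 with the batch A libraries alone. Beside these, the libraries of P7 held 1.74 to 2.05 Dlg2 counts per Dlg3 count and those of P10 held 0.921 to 1.11. At P21 the range was 0.649 to 0.706, and at P28 it was 0.562 to 0.581. From P15 on every library held fewer Dlg2 than Dlg3 counts. Counts are not scaled by length, so this crossing does not place 1 gene above the other. Per kb of the union of exons, Dlg2 lay below Dlg3 already at P5 (33.5 against 50.6 CPM per kb). Per kb of the longest transcript, Dlg2 stood at 69.8 against 59 for Dlg3 at P5, and at 73.2 against 116 at P10. Dlg2 also lost ground to Dlg4, with a log2 ratio of -1.53 ± 0.04 at P15 and -0.62 ± 0.07 at P5 (difference -0.91, adjusted exact p = 0.0429). The difference in the ratio of Dlg3 to Dlg4 was 0.19 (adjusted exact p = 0.179) over all 5 P5 libraries and 0.32 with the batch A libraries alone. There were 0.39 to 0.41 Dlg3 counts per Dlg4 count at P15, against 0.31 to 0.329 in batch A and 0.39 to 0.408 in batch B at P5, so that P15 was apart from batch A and overlapped batch B.

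**Figure D2:**
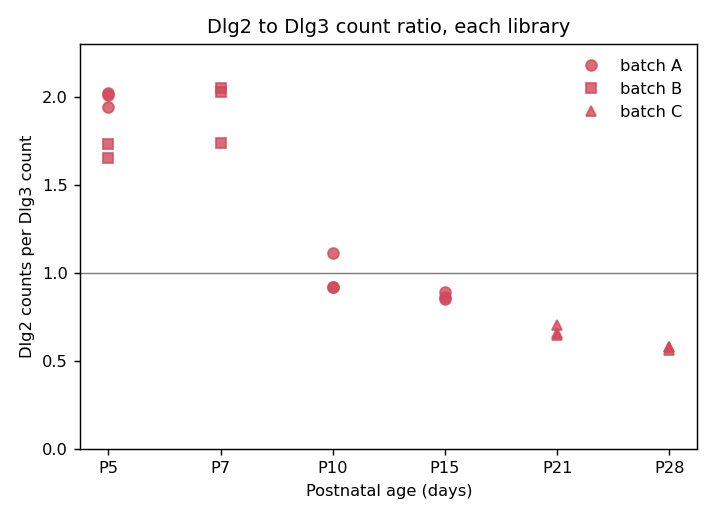
Dlg2 counts per Dlg3 count in each of the 20 libraries by postnatal age, with symbols for batches A, B and C and a line at equal counts. All libraries of P5 and P7 lie at 1.65 or more, and all of P21 and P28 at 0.706 or less. Counts are not scaled by gene length.

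Of the Dlgap genes, which form the middle layer, Dlgap1 rose most. It stood at 843, 835 and 774 CPM at P15, against 287, 307 and 312 CPM in batch A and 386 and 379 CPM in batch B at P5. The log2 change was 1.44 (SE 0.07, adjusted p = 5.0e-15), a 2.71-fold rise with no overlap between the ages. Dlgap3, which is linked to repetitive grooming when deleted in mice, stood at 372, 362 and 368 CPM at P15, against 190 to 208 CPM over the 5 P5 libraries. Its log2 change was 0.90 (SE 0.07, adjusted p = 2.2e-11), and for this gene the P5 libraries of the 2 batches overlapped. Dlgap2 was the lowest of all 10 genes, at 52.9, 49.3 and 48.4 CPM at P15, against 28.6, 34.0 and 30.4 CPM in batch A and 39.0 and 44.1 CPM in batch B at P5. It rose by 0.70 (SE 0.08, adjusted p = 5.7e-08), a call lost with the spectrin covariate (0.51, adjusted p = 0.088). With that covariate 3049 of all 15373 genes passed, in place of 9747. Dlgap4 stood at 264, 249 and 248 CPM at P15, against 254 to 267 CPM at P5, with a log2 change of -0.04 (SE 0.06, adjusted p = 0.65). The contrast between Dlgap1 and Dlgap4 was the widest of the 12 ratios: their log2 ratio was 1.69 ± 0.05 (SD, n = 3) at P15 and 0.35 ± 0.19 (SD, n = 5) at P5, a 2.52-fold difference (exact permutation test, adjusted p = 0.0429). In all, 10 of the 12 pairs within families passed this test, which pools the P5 libraries of both batches. Each of the 10 had the smallest p that the exact test allows (0.0357), so the P15 and P5 libraries did not overlap. The share of other gene pairs that would pass was not computed. Of all genes, 31.6% were called higher and 31.8% lower between these ages. Among the 10, the difference moved by over 1.5 times with the batch A libraries alone for Shank2 over Shank3 (-0.13 in place of -0.24) and Dlgap2 over Dlgap3 (-0.20 in place of -0.35).

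The Shank genes, the innermost layer, rose together. Shank3, whose loss of function underlies Phelan-McDermid syndrome in people, stood at 547, 582 and 698 CPM at P15, against 213, 213 and 212 CPM in batch A and 251 and 296 CPM in batch B at P5. Its 2.87-fold rise (log2 change 1.52, SE 0.11, adjusted p = 1.3e-09) was the largest value of the 10 genes between these ages, within 1 SE of that of Dlgap1. Shank2 stood at 528, 558 and 645 CPM at P15, against 217, 219 and 225 CPM in batch A and 322 and 366 CPM in batch B at P5 (log2 change 1.39, SE 0.11, adjusted p = 8.1e-09). Shank1 stood at 788, 825 and 1049 CPM at P15, against 450, 477 and 460 CPM in batch A and 504 and 606 CPM in batch B at P5 (log2 change 0.94, SE 0.10, adjusted p = 1.4e-07). For each of the 3 genes the libraries of the 2 ages were apart, as they were for every other member called between these ages. For all 3, replicate 3 was the highest of the P15 libraries. With the spectrin level as a covariate the changes were 0.88 for Shank3 (adjusted p = 0.0081), 0.64 for Shank2 (adjusted p = 0.032) and 0.59 for Shank1 (adjusted p = 0.11), so that the call for Shank1 was lost. Of all 15373 genes 3049 passed in that fit, in place of 9747. Sptan1 itself rose between these ages (log2 change 2.76). The ratio of Shank1 to Shank3 fell, with a log2 ratio of 0.54 ± 0.04 at P15 and 1.08 ± 0.06 at P5 (difference -0.54, adjusted exact p = 0.0429), and the ratio of Shank1 to Shank2 did not pass (difference -0.30, adjusted exact p = 0.0779, and -0.45 with the batch A libraries alone). There were 1.48 to 1.63 Shank1 counts per Shank2 count at P15, against 2.04 to 2.18 in batch A and 1.56 to 1.65 in batch B at P5, so that the overlap was with batch B.

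**Figure D3:**
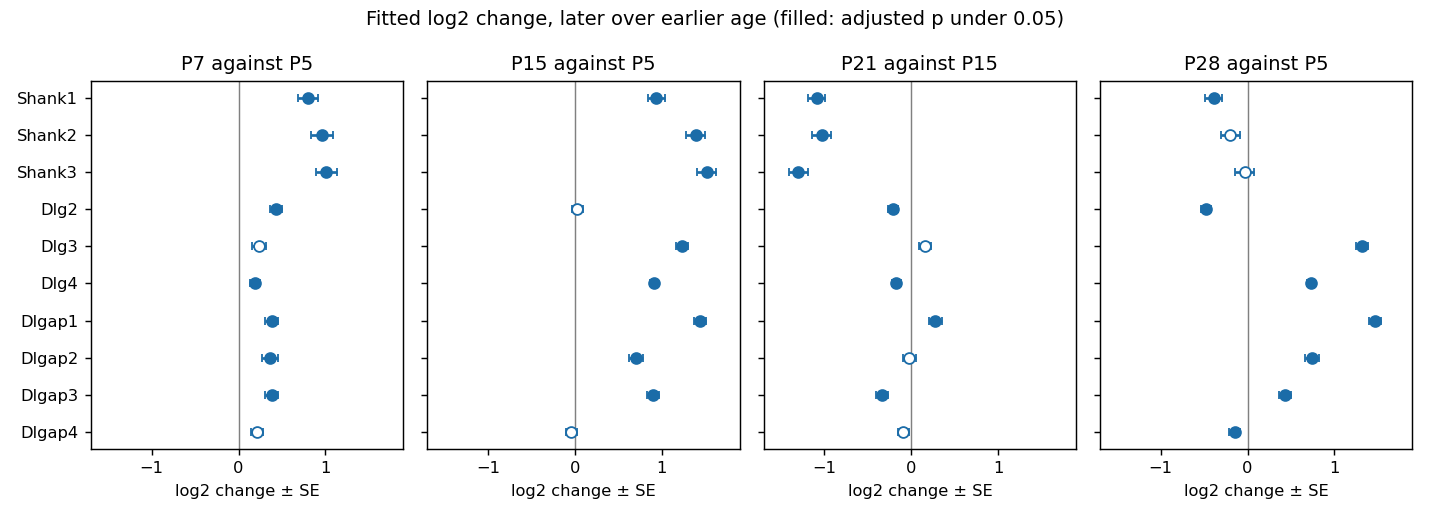
Fitted log2 change with its SE for each of the 10 genes (rows) in 4 comparisons, later over earlier age, with filled points for adjusted p under 0.05. The Shank genes lie between 0.80 and 1.52 for P7 and P15 against P5, and between -1.30 and -1.03 for P21 against P15.

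The changes between neighbouring ages follow, of which P10 against P7 and P21 against P15 also cross batches. For P7 against P5, which rests on the batch B libraries, 8 of the 10 genes rose and none fell, against 6.15% of all genes called higher and 4.89% called lower. Scaled by total counts, 18% of the called genes were higher in place of 55.7%, and 7 of the 10 genes rose. Shank3 stood at 516, 573 and 564 CPM at P7, against 251 and 296 CPM in the P5 libraries of the same batch (log2 change 1.01, SE 0.12, adjusted p = 7.2e-05). Shank2 (0.96, SE 0.13, adjusted p = 0.00014) and Shank1 (0.80, SE 0.12, adjusted p = 0.00018) rose by nearly as much. The other called genes had smaller fitted changes: Dlg2 rose by 0.43, Dlgap1 and Dlgap3 by 0.38, Dlgap2 by 0.36 and Dlg4 by 0.19 (adjusted p = 0.039). Dlg3 (0.24, adjusted p = 0.054) and Dlgap4 (0.21, adjusted p = 0.059) did not pass. With the batch B libraries alone, 5 genes passed as higher: the 3 Shank genes, Dlg2 and Dlgap3. Of all 15005 genes in that fit 361 passed as higher and 260 as lower. With the spectrin covariate no member passed, nor did any of the 15373 genes, and the Shank changes were 0.48 for Shank1, 0.27 for Shank2 and 0.42 for Shank3. The call for Dlg4 was lost in 21 of 33 alternative fits, 14 of which left out 1 library of P5 (4 of the 5), P7 (replicates 1 and 2) or a later age (adjusted p of 0.05 to 0.18). The call for Dlgap2 was lost without replicate 1 of P5 in batch B (0.269) or replicate 1 of P7 (0.288). Without replicate 3 of P7, Dlg3 (0.331) and Dlgap4 (0.241) passed, as both did in DESeq2 (0.234 and 0.205) and without the batch term.

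For P10 against P7, 4 genes rose and 1 fell, against 22.5% of all genes called higher and 20.3% called lower. These ages lie in different batches that P5 alone joins, so a fitted change can differ from the plain difference in CPM. Dlg3 stood at 544, 617 and 587 CPM at P10, against 489, 417 and 370 CPM at P7 (log2 change 0.96, SE 0.11, adjusted p = 2.1e-07). Dlgap1 rose by 0.93 (SE 0.10, adjusted p = 1.4e-07), Dlg4 by 0.69 (SE 0.08, adjusted p = 4.5e-07) and Dlgap3 by 0.46 (SE 0.10, adjusted p = 0.00076). These 4 genes rose in each of the 32 alternative fits. Dlg2 fell to 607, 569 and 541 CPM at P10, against 848, 854 and 751 CPM at P7 (log2 change -0.25, SE 0.09, adjusted p = 0.025). With an offset for exon length the change of Dlg2 was 0.02, and 7 other alternatives lost the call, among them those without replicate 2 or 3 of P5 in batch A, either P5 library of batch B, replicate 2 of P7 or replicate 3 of P10 (-0.261 to -0.212, adjusted p of 0.053 to 0.075). The Shank genes did not pass (Shank1 -0.01, Shank2 0.28 and Shank3 0.25). Without the batch term Shank2 measured -0.37 and Shank1 -0.27, and Shank1 then passed (adjusted p = 0.047). Shank2 and Shank3 passed as higher with the length offset (0.50 and 0.45), with the GC offset (0.44 and 0.43) and without replicate 3 of P10 (0.391 and 0.374), and Shank2 also with the spectrin covariate (0.32, adjusted p = 0.035).

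For P15 against P10, both in batch A, none of the 10 genes passed in edgeR, DESeq2 or limma-voom, where 1.84% of all genes were called higher and 2.52% lower. At an unadjusted p under 0.05 there were 3: Shank3 (0.26), Dlg2 (-0.15) and Dlgap4 (-0.16). Among the P10 libraries replicate 3 held the lowest Shank levels, at 692 CPM for Shank1 and 434 CPM for Shank2, against 852 and 864 CPM and 588 and 542 CPM in the other two. Its Sptan1 level, 5429 CPM, was also the lowest at P10.

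For P21 against P15, 1 gene rose and 6 fell, against 14% of all genes called higher and 14.8% called lower. The 3 Shank genes fell furthest. Shank3 fell to 245, 239 and 259 CPM at P21, against 547, 582 and 698 CPM at P15 (log2 change -1.30, SE 0.11, adjusted p = 2.1e-07). Shank1 fell to 409, 411 and 429 CPM at P21, against 788, 825 and 1049 CPM at P15 (-1.09, SE 0.10, adjusted p = 3.2e-07). Shank2 fell to 278, 253 and 315 CPM at P21, against 528, 558 and 645 CPM at P15 (-1.03, SE 0.11, adjusted p = 3.7e-06). The Shank libraries of these ages were far apart, and in every one of 32 alternative fits these 3 genes kept their direction and their call, with the smallest change at -0.90 for Shank1. P21 lies in batch C alone. The 698 tested genes with a GC content of at least 60%, a range that includes Shank1 (61.4%) and Shank3 (62.4%), had a median change of -0.15 in this comparison, and the 2693 genes with at least 8 kb of exons one of 0.07.

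The other layers moved less between P15 and P21. Dlgap3 fell by 0.34 (SE 0.07, adjusted p = 0.00038), Dlg2 by 0.21 (SE 0.06, adjusted p = 0.0076) and Dlg4 by 0.17 (SE 0.05, adjusted p = 0.022). The call for Dlg4 was lost without replicate 1 or 2 of P15 or replicate 1 of P21 (-0.17 to -0.149). It was also lost without the batch term (-0.167) and with an offset for GC content (-0.153), each with adjusted p = 0.085. The call for Dlg2 was lost without the batch term (adjusted p = 0.057). The call for Dlgap3, whose GC content is 63.9%, was lost with an offset for GC content (-0.13). Dlgap1 rose to 986, 987 and 1008 CPM at P21, against 843, 835 and 774 CPM at P15 (0.28, SE 0.07, adjusted p = 0.0024). Dlg3 (0.16, adjusted p = 0.1), Dlgap2 (-0.02, adjusted p = 0.85) and Dlgap4 (-0.09, adjusted p = 0.32) did not pass.

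For P28 against P21, both in batch C, 1 of the 10 genes fell and none rose, against 0.189% of all genes called lower and 0.065% called higher. Dlg2 fell to 356, 366 and 367 CPM at P28, against 447, 440 and 444 CPM at P21 (log2 change -0.29, SE 0.06, adjusted p = 0.035), with no overlap. This call was lost in 13 of 33 alternative fits, among them each fit without 1 of the 6 libraries of P21 and P28 and those without replicate 3 of P5 in batch A or replicate 2 of P15 (-0.296 to -0.267 over these 8 fits), and the fit with the spectrin covariate (-0.24). With that covariate 13 of all 15373 genes passed, in place of 39. Shank2 measured 182, 176 and 218 CPM at P28, against 278, 253 and 315 CPM at P21 (-0.55, SE 0.11, adjusted p = 0.051), and passed with both offsets and in 6 of the fits without 1 library (adjusted p of 0.006 to 0.049), among them those without replicate 2 of P21 or replicate 3 of P28. Dlgap1 measured 813, 841 and 850 CPM at P28, against 986, 987 and 1008 CPM at P21 (-0.25, SE 0.07, adjusted p = 0.1). In a fit of the batch C libraries alone Dlg2 (adjusted p = 0.00081), Dlgap1 (adjusted p = 0.0014) and Shank1 (-0.24, adjusted p = 0.012) passed as lower. Of all 14056 genes in that fit 173 did so. In DESeq2 Dlgap1 (adjusted p = 0.036) and Shank2 (adjusted p = 0.00029) passed as lower beside Dlg2, as did 112 of all 15373 genes.

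Over the whole span, P28 against P5, 5 of the 10 genes rose and 3 fell, against 35.2% of all genes called higher and 36.4% called lower. The risers were Dlgap1 (log2 change 1.47, SE 0.07, adjusted p = 1.4e-15), Dlg3 (1.32, SE 0.07, adjusted p = 3.7e-14), Dlgap2 (0.74, SE 0.08, adjusted p = 1.5e-08), Dlg4 (0.73, SE 0.05, adjusted p = 1.2e-11) and Dlgap3 (0.43, SE 0.07, adjusted p = 3.7e-06). Dlg2 fell by 0.48 (SE 0.06, adjusted p = 1.1e-07), Shank1 by 0.39 (SE 0.10, adjusted p = 0.0022) and Dlgap4 by 0.15 (SE 0.06, adjusted p = 0.036). Shank1 measured 340, 347 and 373 CPM at P28, against 450 to 606 CPM at P5. Shank2 (-0.20, adjusted p = 0.13) and Shank3 (-0.03, adjusted p = 0.83) did not pass. The 3 Shank genes therefore had log2 changes of 0.94 to 1.52 at P15 and of -0.39 to -0.03 at P28, each against P5. These P28 values moved with the fit: with the spectrin covariate they were -0.74 for Shank1 (adjusted p = 0.034), -0.94 for Shank2 (adjusted p = 0.0015) and -0.66 for Shank3 (adjusted p = 0.032), all called lower, while with the GC offset Shank3 was called higher (0.26, adjusted p = 0.0097). Shank2 was also called lower with total counts (-0.323), without the batch term (-0.492) and with P5 libraries summed by number (-0.468). The call for Shank1 was lost with offsets for exon length or GC content, the call for Dlgap3 with the spectrin covariate (0.12), and Dlgap4 was positive with both offsets. With the spectrin covariate 4887 of all 15373 genes passed, in place of 11013. The call for Dlgap4 was also lost with the spectrin covariate (-0.35, adjusted p = 0.11), with no filter or a stricter one, and without replicate 2 or 3 of P5 in batch A or replicate 1 or 2 of P28 (-0.157 to -0.136), and Shank2 passed as lower without replicate 3 of P28 (-0.302) or of P10 (-0.205).

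The order of the 6 ages can be given for each gene, from the highest mean CPM to the lowest. These are plain means without the batch term, and all P7 libraries lie in batch B. For the genes that stand first at P7, the fitted changes for P10 against P7 carry that term. They were -0.01 for Shank1, 0.28 for Shank2, -0.25 for Dlg2, 0.26 for Dlgap2 and -0.09 for Dlgap4. The place of P7 in the order can thus differ from the fit. For Shank1 it was P7, P15, P10, P5, P21 and P28, and for Shank2 P7, P15, P10, P21, P5 and P28. Shank3 was highest at P15, then P7, P10, P21, P5 and P28. Within the top 3 ages of each Shank gene neighbours overlapped, and between the third and the fourth they did not. Dlg2 ran P7, P10, P5, P15, P21 and P28, with overlap among P10, P5 and P15 as neighbours. Dlg4 ran P15, P10, P21, P28, P7 and P5, where P15 overlapped P10 and P21 overlapped P28. Dlg3 and Dlgap1 both ran P21, P28, P15, P10, P7 and P5, and for both P10, P7 and P5 were apart from each other. Dlg3 libraries of P21 and P28 overlapped, as did those of P15 and P10, and for Dlgap1 P28, P15 and P10 overlapped as neighbours. Dlgap3 ran P15, P10, P21, P28, P7 and P5, where P15 overlapped P10 and P28 overlapped P7. All neighbours in the order of Dlgap4 overlapped, and for Dlgap2 P5 was the lowest and stood apart from P10, the next.

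Genes of different length can be compared only per length of transcript. Per kb of the union of annotated exons, Dlg4 was highest at P15 with 112 ± 2.13 CPM per kb (SD, n = 3), followed by Dlg3 (102 ± 3.95), Shank1 (84.4 ± 13.4), Dlgap3 (81.2 ± 1.03), Shank3 (66.3 ± 8.57), Shank2 (53.5 ± 5.65), Dlgap1 (45.7 ± 2.1), Dlg2 (31.6 ± 1.53), Dlgap4 (30.0 ± 1.02) and Dlgap2 (8.17 ± 0.387). Among neighbours in this order the P15 libraries overlapped for Dlg3 and Shank1, Shank1 and Dlgap3, Shank3 and Shank2, and Dlg2 and Dlgap4. Shank1 ranked first at P7 with 92.2 CPM per kb, and stood behind Dlg3, Dlg4, Dlgap3 and Dlgap1 at P21 with 39.6 and at P28 with 33.6 CPM per kb. Dlg3 ranked first at P21 (113 CPM per kb) and P28 (108 CPM per kb). Per kb of the longest annotated transcript Dlg4 was first at all 6 ages, and Dlgap1 came next after Dlg3 at P15 with 114 CPM per kb, since its union of exons, 17.89 kb, is far longer than its longest transcript. Dlgap2 was last at every age on both scales.

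**Figure D4:**
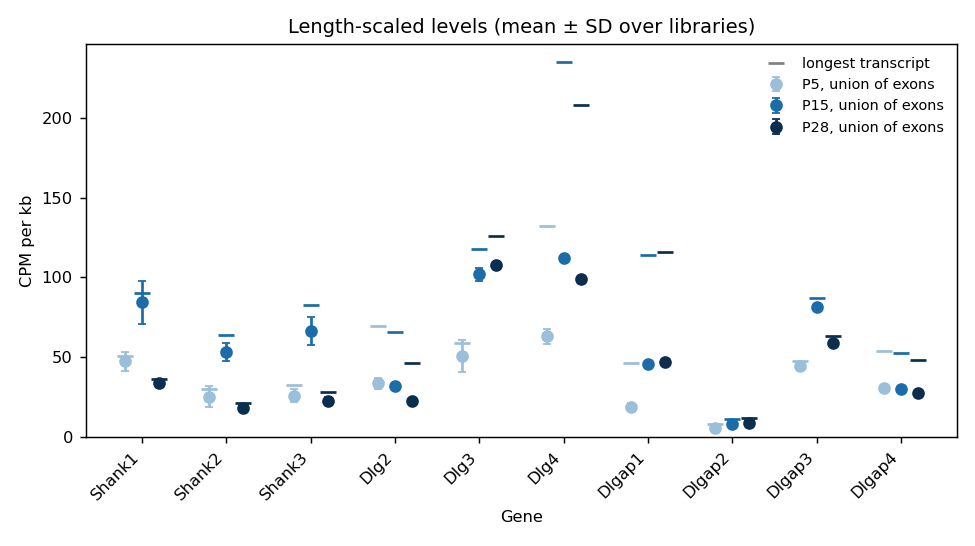
CPM per kb of the 10 genes at P5, P15 and P28 (light to dark), as the mean ± SD over libraries per kb of the union of exons, with a dash for the mean per kb of the longest transcript. Of these 3 ages the mean of each Shank gene is lowest at P28, and the dash for Dlg4 and Dlgap1 lies far above the point.

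The 3 Shank genes varied together on both measures below, as did Dlg3, Dlg4 and Dlgap1. Over the 20 libraries the 3 pairs of Shank genes had Pearson r of 0.96 to 0.97 (log2 CPM), Dlg3 and Dlgap1 one of 0.98, Dlg3 and Dlg4 0.94, and Dlg2 and Dlgap4 0.84. These values share the course over age and the libraries' depth. Deviations from the mean of the same age and batch (7 groups) carry no difference between ages, and there r was 0.80 to 0.91 for the Shank pairs, 0.87 for Dlg3 with Dlgap1, 0.87 for Dlg4 with Dlgap1, 0.79 for Dlg3 with Dlg4 and 0.72 for Dlgap3 with Dlgap4. Shank1 and Dlg3 had r = -0.45. Other pairs differed between the measures: Dlg2 with Dlgap4 had 0.45 on deviations, and Dlgap3 with Dlgap4 had 0.12 over the libraries. For Dlg2 with Dlgap1 r was -0.43 over the libraries and 0.63 on deviations. Single libraries of an age thus tended to hold high or low levels of all 3 Shank genes together. Their deviations also ran with those of the spectrin gene Sptan1 (r = 0.68 for Shank2, 0.60 for Shank3 and 0.35 for Shank1). For the other members r with Sptan1 ran from 0.16 for Dlg3 to 0.52 for Dlgap3, and Dlg2, Dlg4 and Dlgap1 also lay above Shank1. The points of all these values share library and depth.

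**Figure D5:**
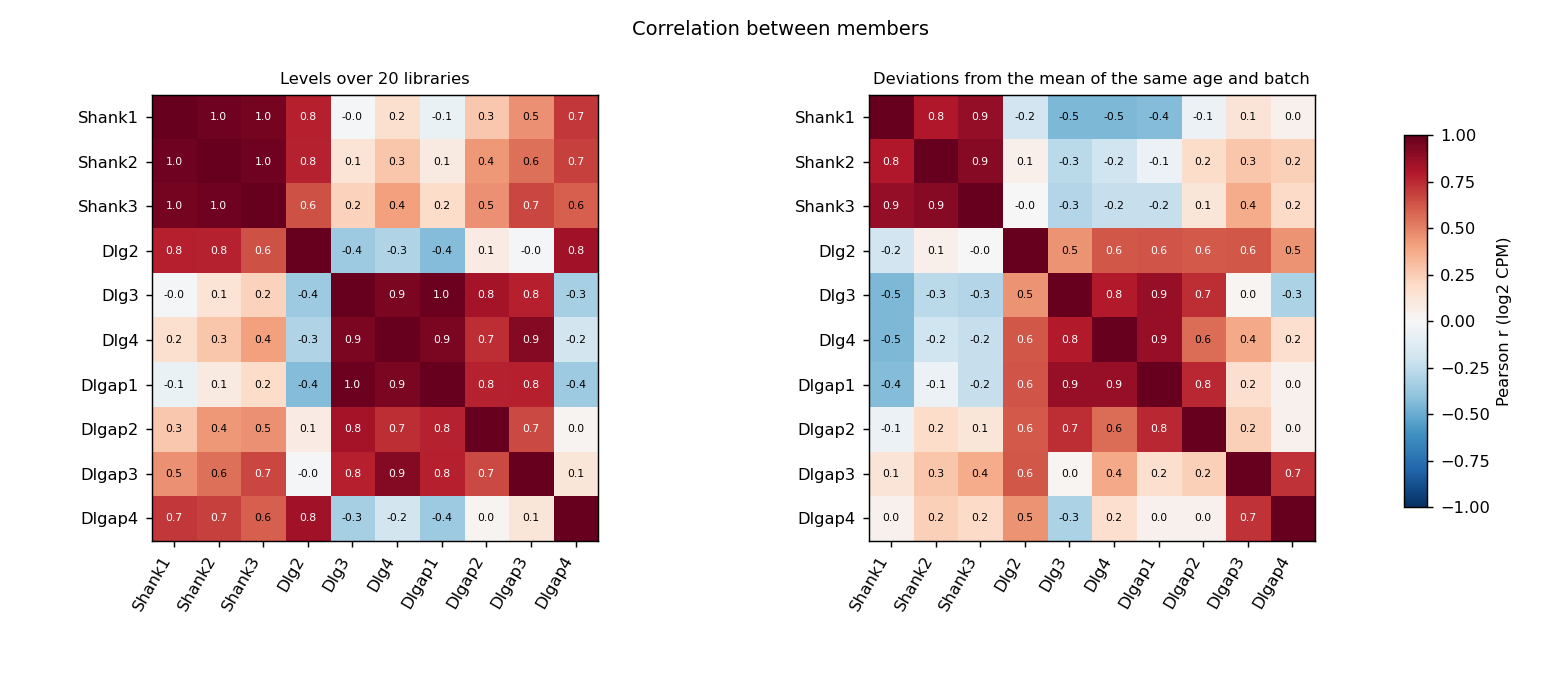
Pearson r between the 10 genes over 20 libraries (left) and over deviations from the mean of the same age and batch (right), from blue (-1) to red (1). The Shank block is red in both panels, and Shank1 with Dlg3 is at -0.45 on the right.

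The 2 genes most like each member over the 20 libraries were taken from 10569 genes with a mean of at least 5 CPM. Traf3 was among them for all 3 Shank genes (r = 0.965 with Shank1, 0.960 with Shank2 and 0.975 with Shank3), beside Thsd4 for Shank1, Srcin1 for Shank2 and Map3k10 for Shank3. For the Dlg genes they were Cx3cl1 (0.997) and Strn4 for Dlg4, Prickle2 (0.993) for Dlg3, and Jakmip2 (0.950) and Kif5c for Dlg2. For the Dlgap genes they were Tmem132b (0.996) and Syt13 for Dlgap1, Sptb (0.928) and Phf24 for Dlgap2, Tmem151a (0.969) and Grik5 for Dlgap3, and Lnx1 (0.899) and Kcnn1 for Dlgap4. The courses of Dlg3, Dlg4 and Dlgap1 thus had close counterparts, while that of Dlgap4 had none above 0.899.

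Genes of proteins that bind the scaffold, or were listed as its partners, were counted for P15 against P5. There the median log2 change of all genes was -0.02, with 31.6% of them called higher and 31.8% called lower. Of 17 regulators of small GTPases in the postsynaptic density 16 rose and none fell (median 0.83). The Ras exchange factor gene Rasgrf1 stood at 452 ± 10.5 CPM at P15 and 102 ± 32 CPM at P5 (log2 change 2.52, SE 0.09), and Iqsec2 (1.40), Sipa1l2 (1.52) and Kalrn (1.77), all regulators of small GTPases, were the others with the smallest p. Of 7 genes of the Lgi proteins and related Adam proteins, 5 rose and none fell (median 1.09), led by Lgi3 (1.78), Lgi1 (1.36), Adam11 (1.09) and Lgi4 (2.21). Summed oligodendrocyte markers lay at 96.6 to 122 CPM at P5 and at 1013 to 1775 CPM at P15. The part of other cells in these changes was not tested. Of 11 genes of Homer and Shank-linked actin proteins 9 rose and 1 fell (median 0.49). Baiap2, which encodes the IRSp53 protein that binds Shank and PSD-95, stood at 371 ± 5.17 CPM at P15 and 136 ± 15.1 CPM at P5 (1.57, SE 0.07), followed by Abi1 (1.07), Homer3 (1.47) and the cortactin gene Cttn (0.49). With the spectrin covariate 5 of these 11 genes passed, and Sptan1 is itself one of the 11. Of all 15373 genes 3049 passed in that fit, in place of 9747.

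In the remaining lists, read against the same 31.6% and 31.8% of all genes, more members fell or did not pass. Of 16 adaptor genes 11 rose and 1 fell (median 0.31), among them Lzts3 (2.21), a Shank-binding protein gene, which stood at 226 ± 1.4 CPM at P15 and 52.9 ± 6.33 CPM at P5, and Tanc1 (3.64), which encodes a PSD-95-binding scaffold, Nsmf (1.07) and Cnksr2 (0.83). With the spectrin covariate 4 of the 16 passed, beside 3049 of all 15373 genes in place of 9747. Of 15 other MAGUK and PDZ scaffold genes 7 rose and 6 fell (median 0.06). These counts lie near the shares of all genes called. Mpp2 (1.44), Dlg1 (1.12) and Magi1 (0.74) were higher, and Cask, a MAGUK of both sides of the synapse, fell to 75.4 ± 1.65 CPM at P15, against 127 ± 5.44 CPM at P5 (-0.71, SE 0.05). Of 9 genes of enzymes that attach or remove palmitate, 4 rose and 2 fell (median 0.06), again near those shares, with Abhd17a (0.60), Zdhhc8 (0.60) and Zdhhc17 (0.44) higher and Zdhhc2 lower (-0.60, SE 0.07). The members of these lists named here passed with adjusted p of at most 9.4e-08.

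The scaffold genes lie on 8 chromosomes, all on the plus strand and protein-coding in GENCODE vM21 (mm10). Shank1 (44310253 to 44360572), Shank2 (144001928 to 144424494) and Dlg2 (90476672 to 92449247) are on chromosome 7. Shank3 spans 89499623 to 89560261 on chromosome 15, Dlg3 100767722 to 100818410 on chromosome X and Dlg4 70016942 to 70047522 on chromosome 11. Dlgap1 spans 69969073 to 70821413 on chromosome 17, Dlgap2 14095865 to 14847680 on chromosome 8, Dlgap3 127169204 to 127237022 on chromosome 4 and Dlgap4 156613705 to 156764363 on chromosome 2. Genes annotated within or antisense to some of them, such as 1700008O03Rik on the minus strand across the end of Shank1, could share reads, since the strand setting of the counting is not given in the sources used here.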

How the data were processed

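The deposited table holds raw counts per gene symbol for 20 libraries, with no normalization by the authors. STAR 2.7.5b, SAMtools 1.10 and featureCounts are named with build mm10, per the submitters' processing notes; annotation, strand setting and treatment of multimapping reads are not given there. Libraries were grouped by age and batch from the labels. Every pair of libraries of an age differed by more than sampling noise (chi-square over its degrees of freedom 3.85 to 43.5), so each counted as 1 sample. Whether equally numbered P5 libraries of batches A and B share an animal is not stated.

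The tests of counts used edgeR 4.0.16 (R 4.3.3): TMM scaling, the default filter by age (15373 genes), a mean for each of 6 ages with a batch B term that P5 makes estimable (13 residual degrees of freedom, biological coefficient of variation 8.46%), a robust quasi-likelihood fit, and p-values adjusted by Benjamini-Hochberg over all genes with a threshold of 0.05. A log2 change is later over earlier age, with SE = change / root of F. CPM values are TMM-scaled, with SD over the libraries of an age. Intervals from depth cover counting error only. Ratios of 2 paralogues were compared between P15 and P5 with exact permutation tests in scipy 1.17.1; 3 against 3 libraries, as in batch A alone, cannot go below 0.10. Lengths, GC content, coordinates and coding sequence came from GENCODE vM21 (31490 of 32245 symbols matched, 97.7%). The code was tested on simulated counts. Alternatives comprised DESeq2 1.42.0, limma-voom (limma 3.58.1), other scalings and filters, batch terms, offsets, a spectrin covariate and leaving out each library. Genes named are the 10 members, the 2 genes most like each (prior count 2) and the 4 with the smallest p in each list of partners; 1 of the genes most like Dlg3 is not reported here. The members and lists were chosen with earlier results of these data known.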

Additional observations from a re-analysis of the deposited data

How the results depend on the processing

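The 70 member changes were refitted under 20 settings that each left out 1 library and 13 others, 2 of them (GC offset and spectrin covariate) chosen after seeing the data: of 2280 values 2108 kept direction and call, 72 lost the call, 50 gained one and 50 changed sign. Of 34 sign changes outside the leave-one-out settings, 3 concerned called changes, and for all of them the cause was not tested. Under the length offset these were Dlg2 for P10 against P7 (0.021) and Dlgap4 for P28 against P5 (0.053), and under the GC offset Dlgap4 for P28 against P5 (0.110). The others under the length offset were, for P10 against P7, Shank1 (0.207) and Dlgap4 (0.112), for P15 against P10 Dlg4 (-0.003), for P21 against P15 Dlgap2 (0.004), for P28 against P21 Dlg4 (0.089) and Dlgap4 (0.040), for P15 against P5 Dlgap4 (0.099), and for P28 against P5 Shank2 (0.007) and Shank3 (0.178). Under the GC offset they were Shank1 (0.182) and Dlgap4 (0.104) for P10 against P7, Dlgap2 (0.073) and Dlgap4 (0.072) for P21 against P15, Dlg4 (0.025) for P28 against P21, Dlgap4 (0.040) for P15 against P5 and Shank3 (0.259, adjusted p = 0.0097) for P28 against P5. Without the batch term Shank2 (-0.366), Shank3 (-0.116) and Dlgap2 (-0.159) for P10 against P7 and Dlg2 for P15 against P5 (-0.084) were negative, and with P5 libraries summed by number -0.367 (adjusted p = 0.034), -0.118, -0.159 and -0.083. Under the spectrin covariate Shank1 for P10 against P7 was 0.011, Dlg4 and Dlgap4 for P28 against P21 were 0.019 and 0.015 and Dlg2 for P15 against P5 was -0.200. With total counts Dlg2 for P15 against P5 was -0.092 and Dlg4 for P28 against P21 0.014, and with the stricter filter Shank1 for P10 against P7 was 0.002. Leaving out 1 library gave ranges of -0.149 to 0.117 for Shank1 (P10 against P7), -0.026 to 0.070 for Dlg3 and 0.000 to 0.041 for Dlg4 (P15 against P10), -0.059 to 0.020 for Dlgap2 (P21 against P15), -0.017 to 0.012 for Dlg4 and -0.083 to 0.033 for Dlgap4 (P28 against P21), -0.021 to 0.063 for Dlg2 (P15 against P5) and -0.096 to 0.038 for Shank3 (P28 against P5). The count of 8 for P7 against P5 was 5 in batch B alone, where 621 of all 15005 genes passed. It was 0 with the spectrin covariate, where none of all 15373 genes passed. The count of 1 for P28 against P21 was 0 without the batch term, with the replicate block and with the spectrin covariate, and 0 to 2 without 1 library. It was 3 in batch C alone (277 of all 14056 genes passed there) and in DESeq2 (165 of all 15373 genes). The same replicate numbers do not pair libraries of different ages (r between -0.26 and 0.23 over 27 pairs, 3 of them over 0.1), and the replicate block changed the count of calls by over 1.5 times in no other comparison. With the spectrin covariate 5 of the 11 Homer and actin genes and 4 of the 16 adaptors passed for P15 against P5, in place of 10 and 12. Of all 15373 genes 3049 passed there, in place of 9747. Scaling by total counts moved the median change of all genes from -0.02 to -0.14 for P15 against P5. Per kb of the longest transcript, levels at P15 were 64.1 for Shank2, 82.7 for Shank3, 65.9 for Dlg2, 118 for Dlg3, 235 for Dlg4, 114 for Dlgap1, 11.2 for Dlgap2, 87.3 for Dlgap3 and 52.3 for Dlgap4. The test of the ratios with 1 library left out was not run, since 2 against 5 or 3 against 4 libraries cannot reach an adjusted p of 0.05.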
